A study of Mus musculus with 2 samples.

Results

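The genes described here take glucose into the cell, break it down to pyruvate and lactate, and divert part of it into the mitochondria, the pentose phosphate pathway or glycogen. They were chosen by name, with earlier results of these data known, so comparisons with all genes are not independent of those results. In all 42 genes were listed. A gene was included where the array annotation paired at least 1 probe set with that gene and no other. This held for 38 of the 42 genes, against 18193 genes with such a non-control probe set on the whole array. Gpi1, Pfkfb1, Eno1 and G6pdx were not analysed here, and Gapdh was represented by control probe sets alone, which left 37 genes. All 37 gave signals above the lower limit used on both arrays.

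The study compared primary mouse osteoblasts held in medium conditioned by MDA-PCa2b cells with the same kind of cells held in medium conditioned by PC-3 cells, to find transcripts that respond to factors of these prostate cancer lines. Both are human lines derived from bone metastases, MDA-PCa2b being known for bone-forming and PC-3 for bone-destroying lesions. In both groups the osteoblasts had been differentiated for 10 days in alpha-MEM with fetal calf serum (10%), beta-glycerophosphate (10 mM) and ascorbic acid (50 µg/ml), were starved of serum overnight, and were exposed for 6 hours. The PC-3 sample is titled with the prefix MDA as well, so its group was taken from its source description, and every direction below rests on that label. Each group was 1 Affymetrix array, so no error between cultures and no test between the media could be computed, and osteoblasts without tumour-cell medium were not analysed here.

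Glycolysis splits glucose into pyruvate and yields ATP without oxygen. Lactate dehydrogenase reduces pyruvate to lactate, and monocarboxylate transporters move lactate across the membrane, while the pyruvate dehydrogenase complex sends pyruvate into the tricarboxylic acid cycle. Osteoblasts are known as strongly glycolytic cells that take up glucose mainly through the transporter encoded by Slc2a1. Flux is set largely at glucose entry, hexokinase and phosphofructokinase, and the bifunctional Pfkfb enzymes make and remove fructose 2,6-bisphosphate, the strongest activator of phosphofructokinase.

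With PC-3 medium the higher signals lay at glucose entry (Slc2a1), at the phosphofructokinase step (Pfkl, Pfkp and Pfkfb3) and at lactate transport. Slc2a4 and Pfkm, of the first 2 steps, lay slightly lower. Most enzymes between these steps differed little, apart from Eno2 (2.003-fold higher, from a signal close to the lower limit) and Eno3 (1.84-fold lower). The lactate transporter gene Slc16a1 (MCT1) had a signal of 950 in MDA-PCa2b medium against 3694 in PC-3 medium, a 3.89-fold difference. Pfkfb3, the Pfkfb gene with the highest kinase over phosphatase activity, gave 298 and 795 in the same order, 2.67-fold higher. The lactate exporter gene Slc16a3 (MCT4) was 1.95-fold higher (276 and 537), and the glucose transporter gene Slc2a1 (GLUT1) was 1.84-fold higher (769 and 1411).

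Differences are given below as log2 ratios, that is PC-3 medium minus MDA-PCa2b medium on the log2 scale, from the brightest probe set of each gene. Of the 37 genes, 7 were at least 1.5-fold higher and 1 was at least 1.5-fold lower, where 5.18% of the 10649 genes measured on both arrays were higher by that much and 6.23% lower. At 2-fold, 3 genes were higher and 0 lower, against 1.9% and 1.68% of all genes. The median log2 ratio was 0.18 over the 37 genes and -0.04 over all genes, and 21 of the 37 (56.8%) lay above 0, against 44.1% of all genes. Slc16a1 ranked 38 and Pfkfb3 109 from the top of the 10649 genes.

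**Figure D1:**
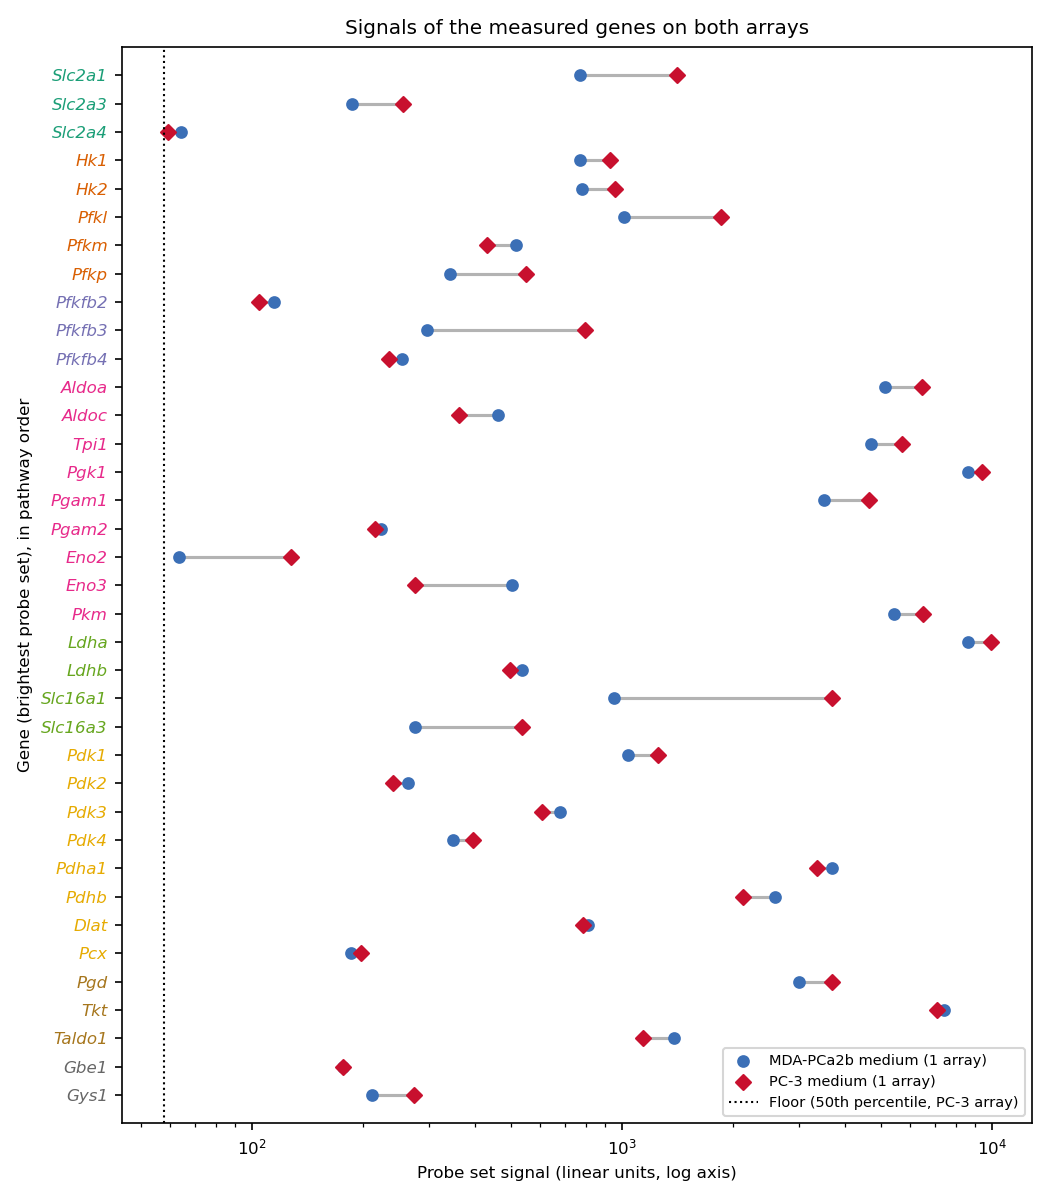
Probe set signal (horizontal log axis) of the 37 measured genes (vertical axis, in pathway order, name colours marking the steps) with MDA-PCa2b medium (circles) and PC-3 medium (diamonds), 1 array each, with the lower limit of 57.7 dotted. The longest lines are those of Slc16a1 (950 and 3694) and Pfkfb3 (298 and 795), and Eno3 has the longest line in the opposite direction (505 and 275).

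The 250 bases before the transcription start are shown for Slc16a1, Pfkfb3, Slc2a1 and Slc16a3. These genes had high ratios at the entry, control and lactate transport steps. Pfkl, Pfkp and Eno2, also at least 1.5-fold higher, are not shown. Their windows held 1, 3 and 0 matches to the motif described next. The sequences were taken from RefSeq (GRCm38.p6), run 5′ to 3′ on the strand of the gene, and end just before the transcription start. For genes with several annotated starts the outermost was used. Capitals mark the core of the hypoxia response element, ACGTG or GCGTG, on either strand.
Slc16a1 (GRCm38.p6 chr3:104638414-104638663, plus strand): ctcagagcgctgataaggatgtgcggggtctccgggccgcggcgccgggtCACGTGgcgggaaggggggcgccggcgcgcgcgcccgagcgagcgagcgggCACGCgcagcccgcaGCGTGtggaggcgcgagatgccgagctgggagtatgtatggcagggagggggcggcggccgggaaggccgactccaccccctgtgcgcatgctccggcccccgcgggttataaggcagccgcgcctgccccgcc
Pfkfb3 (GRCm38.p6 chr2:11553930-11554179, minus strand): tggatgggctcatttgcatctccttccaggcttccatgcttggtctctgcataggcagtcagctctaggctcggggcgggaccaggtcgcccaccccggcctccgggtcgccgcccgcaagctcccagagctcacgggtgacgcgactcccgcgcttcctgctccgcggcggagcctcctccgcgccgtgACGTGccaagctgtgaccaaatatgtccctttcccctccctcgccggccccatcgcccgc
Slc2a1 (GRCm38.p6 chr4:119108495-119108744, plus strand): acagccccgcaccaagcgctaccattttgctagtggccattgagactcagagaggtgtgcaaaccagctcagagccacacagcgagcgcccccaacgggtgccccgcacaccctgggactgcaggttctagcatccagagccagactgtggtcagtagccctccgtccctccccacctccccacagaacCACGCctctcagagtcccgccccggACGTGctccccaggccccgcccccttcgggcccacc
Slc16a3 (GRCm38.p6 chr11:120948817-120949066, plus strand): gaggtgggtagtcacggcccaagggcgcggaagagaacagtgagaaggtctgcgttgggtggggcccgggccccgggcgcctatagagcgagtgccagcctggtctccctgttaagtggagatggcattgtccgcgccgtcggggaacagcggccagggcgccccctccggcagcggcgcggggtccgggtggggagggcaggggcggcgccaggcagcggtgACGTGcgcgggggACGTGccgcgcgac

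The hypoxia response core was searched on both strands in the same window of every gene with a promoter sequence. It was present in 38.6% of 27025 genes, in 26 of 35 measured genes of the group with a sequence, and in 6 of the 7 that were at least 1.5-fold higher (Eno2 had none). The 27025 genes were not limited to genes measured on the arrays. The values over all genes in this paragraph therefore come from an unlike set, and the share among all measured genes is not given. Among the other 28 measured genes it was present in 20 (71.4%), so most of the genes with small differences also held it. The windows of the group were richer in G and C, with a median of 60.4% over the 35 genes against 52.0% over all genes. Within the group the median was 66.4% for the 7 higher genes and 59.8% for the other 28. The core itself contains G and C, and the part of base composition in these shares was not tested. Slc16a1 held 4 matches, of which an overlapping pair lay within an E-box (CACGTG), a motif read the same on both strands. An E-box was present in 5 of 35 (14.3%) and in 6.04% of all genes. These matches describe letters in the window and not sites bound by a factor.

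Glucose entry differed by transporter. The 3 probe sets of Slc2a1 gave log2 ratios of 0.78, 0.88 and 0.94, all above the 1.5-fold line at 0.58. Slc2a3, which encodes the high-affinity transporter GLUT3, gave signals of 187 and 255 (log2 ratio 0.45), but its second measured probe set gave 73.5 and 74.2 (0.01), and 2 others were below the lower limit. Slc2a4, which encodes the insulin-responsive transporter GLUT4 of muscle and fat, lay close to the limit on both arrays, at 64.4 and 59.1. Of 4 fat cell markers 3 were above the limit on both arrays, with summed signals of 3021 and 2772, most of it from Lpl (2652 and 2107). Adipoq gave 101 and 139 and Fabp4 265 and 522, while Cidec lay below the limit on both arrays. Their part in the Slc2a4 signal was not tested.

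Hexokinases trap glucose in the cell as glucose 6-phosphate. Hk1, the broadly expressed form, gave 770 and 927, and Hk2, the inducible form, 782 and 956, and the log2 ratios of 0.27 and 0.29 were nearly equal. Phosphofructokinase, the committed step, is built from subunits encoded by 3 genes. The liver-type subunit gene Pfkl gave 1015 and 1852 (1.82-fold higher), with a log2 ratio of 0.87 and of 0.85 by its second measured probe set. The platelet-type subunit gene Pfkp gave 343 and 551 (1.61-fold higher), with 0.68 and 0.60 by its measured probe sets. The muscle-type subunit gene Pfkm went the other way, from 518 to 431 (log2 ratio -0.26), so that its log2 ratio lay 1.13 below that of Pfkl.

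Among the regulators of fructose 2,6-bisphosphate, Pfkfb3 was higher and the other 2 measured genes lay near 0. The probe sets of Pfkfb3 gave similar values, with log2 ratios of 1.42 and 1.395 from signals of 298 and 795 and of 77.6 and 204. Pfkfb2, the heart-type form, gave 114 and 104, and Pfkfb4, known as a hypoxia-induced form, 255 and 234, each with a log2 ratio of -0.13 or -0.12. The log2 ratio of Pfkfb3 was thus 1.54 above that of Pfkfb4 and 1.55 above that of Pfkfb2.

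**Figure D2:**
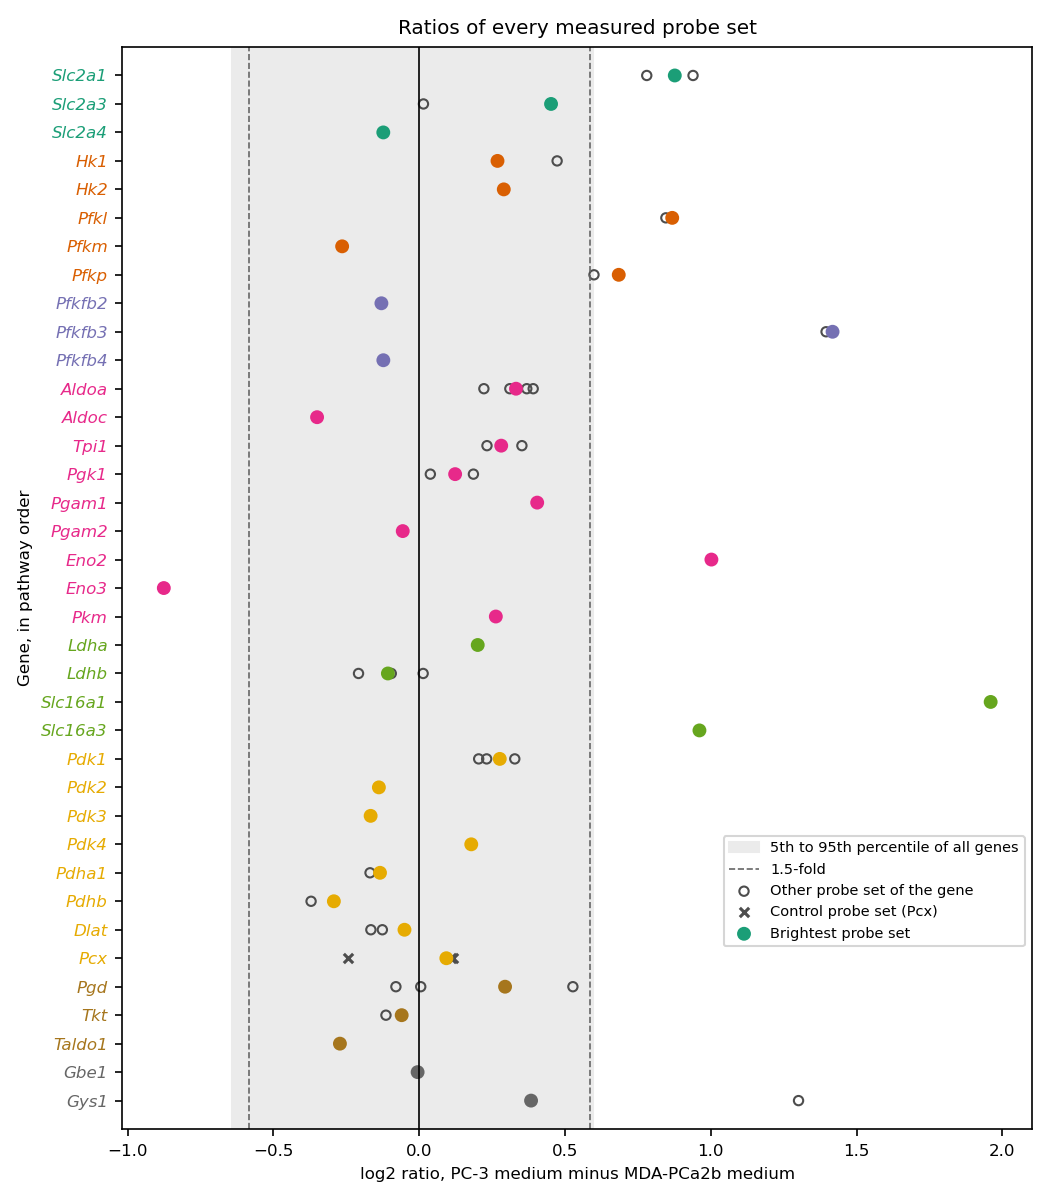
Log2 ratio (horizontal axis) of every probe set above the lower limit on both arrays, for the 37 genes in pathway order (vertical axis): filled points are the brightest probe set of a gene, open circles its other probe sets and crosses the Pcx control probe sets. The grey band holds the 5th to 95th percentile of all genes, and the filled points of Slc16a1, Pfkfb3, Eno2, Slc16a3, Slc2a1, Pfkl and Pfkp lie to its right and that of Eno3 to its left.

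Of 9 measured genes from aldolase to pyruvate kinase 6 lay above 0, and 5 of these were slightly higher with PC-3 medium. Aldoa, the main aldolase gene, gave 5150 and 6481, and its 5 probe sets gave log2 ratios from 0.22 to 0.39. The triose phosphate isomerase gene Tpi1 gave 4706 and 5718 (0.28; 3 probe sets from 0.23 to 0.35), and the phosphoglycerate mutase gene Pgam1 gave 3520 and 4659 (0.40). Pkm, the pyruvate kinase gene, gave 5421 and 6504 (0.26), and the phosphoglycerate kinase gene Pgk1 gave 8625 and 9393 (0.12). None of these genes was 1.5-fold higher, but no probe set of Aldoa, Tpi1 or Pgk1 lay below 0. All 5 probe sets of Aldoa, and the brightest of Tpi1 and Pgk1, have names that mark them as able to match several transcripts. Agreement among such probe sets is not independent. Gapdh, the glyceraldehyde phosphate dehydrogenase gene often used as a reference, could be read from 3 control probe sets, which gave log2 ratios of 0.02 (3′ end), 0.04 (middle) and 0.04 (5′ end) from signals of 11203 to 15710.

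The enolase genes differed in opposite directions. Eno2, the neuronal form that other cells also make, gave 63.5 and 127, 2.003-fold higher by a single probe set whose signal with MDA-PCa2b medium lay just above the limit of 56.7. Eno3, the muscle form, gave 505 and 275, 1.84-fold lower by a single probe set, the lowest log2 ratio of the group (-0.88). Of 7 skeletal muscle markers (Acta1, Ckm, Myh3, Myog, Des, Mylpf and Tnnt3) none was above the limit on both arrays, and their summed signal was 208 in MDA-PCa2b medium against 238 in PC-3 medium. Of 5 markers of neurons and glia none was above the limit on both arrays either, with summed signals of 189 and 150. Pgam2, the muscle form of phosphoglycerate mutase, gave 224 and 215, and Aldoc, the brain form of aldolase, 461 and 362 (log2 ratio -0.35).

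In several families the isoforms differed from each other; these pairs were picked after the values were known. On the log2 scale Pfkl and Pfkp lay above Pfkm by 1.13 and 0.95, Aldoa above Aldoc by 0.68, Pgam1 above Pgam2 by 0.46, Eno2 above Eno3 by 1.88 and Ldha above Ldhb by 0.31. Other pairs lay closer together, among them Hk1 and Hk2 (-0.02), Pdk1 and Pdk4 (0.10) and Pfkl and Pfkp (0.18). For scale, where a gene had several probe sets their log2 ratios differed from its mean with an SD of 0.30 in the lowest, 0.23 in the middle and 0.18 in the highest tertile of signal. This scatter is that of the ratio of 1 gene, and a difference between genes carries the scatter of both, so it is wider. It arises within 1 pair of arrays and is not the spread between cultures.

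Lactate production and transport showed the largest ratio. Ldha, the subunit gene that favours lactate formation, gave 8633 and 9920 (log2 ratio 0.20), and Ldhb, the subunit gene that favours pyruvate formation, gave 535 and 496 (-0.11; 4 probe sets from -0.21 to 0.01). Against these small differences Slc16a1 had a log2 ratio of 1.96 and Slc16a3 one of 0.96. Each of these ratios rests on 1 probe set, since the second probe set of Slc16a1 lay below the limit on both arrays (4.93 and 28.6) and Slc16a3 had no other. Their partner genes, which encode chaperones of these transporters, were Bsg (5645 and 6276, log2 ratio 0.15) and Emb (961 and 1258, 0.39 and by its second probe set 0.61). The related carrier gene Slc16a7 (MCT2) was above the limit with MDA-PCa2b medium alone, at 70.2.

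**Figure D3:**
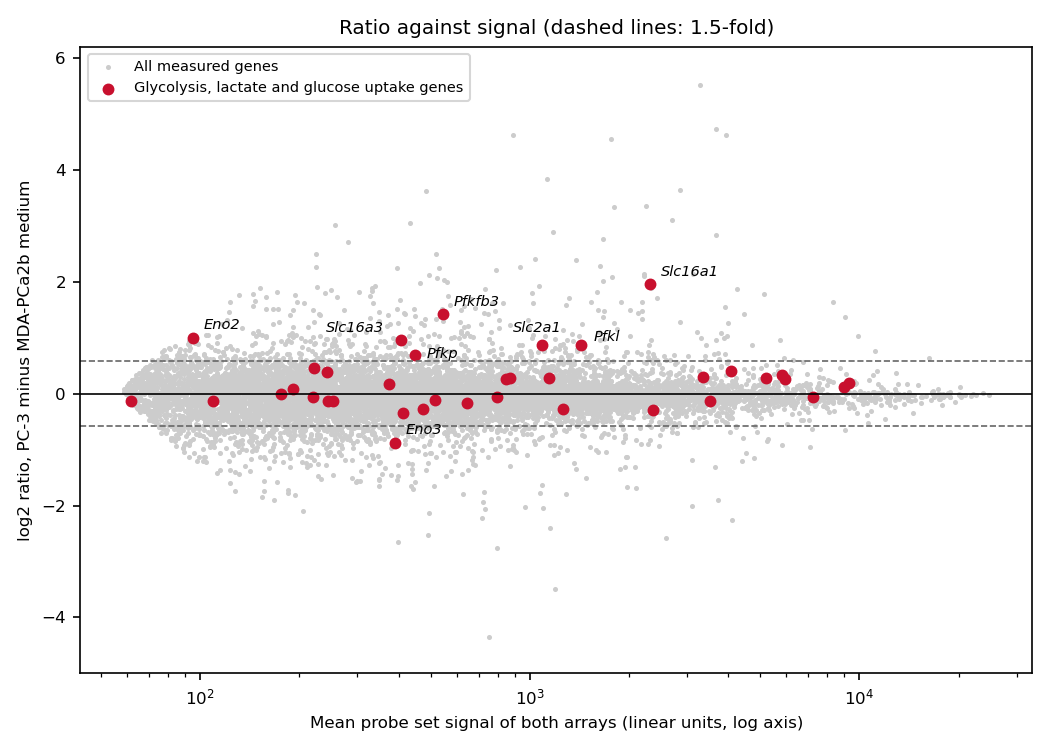
Log2 ratio (vertical axis) against mean signal of both arrays (horizontal log axis) for the 10649 genes measured on both arrays (grey), with the 37 genes of the group in red and the 1.5-fold lines dashed. The 8 labelled genes lie outside the dashed lines, and 29 lie between them.

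Genes that govern the entry of pyruvate into mitochondria differed little: of 8, none was 1.5-fold different, and the median was -0.09. At that threshold 5.18% of all genes were higher and 6.23% lower, so a list of 8 could lack any at those shares. Pyruvate dehydrogenase kinases switch the complex off. Pdk1, the hypoxia-induced form, was slightly higher by all 4 probe sets (log2 ratios from 0.20 to 0.33, brightest 1036 and 1254). Pdk4, the form induced by fasting, gave 350 and 396, Pdk2 264 and 240, and Pdk3 682 and 607. Of the subunit genes of the complex, Pdha1, Pdhb and Dlat lay below 0 by all of their 7 probe sets: Pdha1 (3690 and 3362) at -0.13 and -0.17, Pdhb (2597 and 2120) at -0.29 and -0.37, and Dlat (811 and 783) from -0.17 to -0.05. The other subunit genes, Dld (1151 and 1235, 0.10) and Pdhx (208 and 220, 0.08), lay slightly above 0. The pyruvate carboxylase gene Pcx gave 185 and 197 (0.09), and its control probe sets above the limit ranged from -0.24 to 0.12.

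The pentose phosphate genes did not move one way. Pgd, the phosphogluconate dehydrogenase gene, gave 3010 and 3691 by its brightest probe set (0.29), but its 4 probe sets ranged from -0.08 to 0.53. The transketolase gene Tkt gave 7401 and 7098 (-0.06) and the transaldolase gene Taldo1 1379 and 1142 (-0.27). For glycogen, the branching enzyme gene Gbe1 gave 176 and 176. The glycogen synthase gene Gys1 gave 211 and 275 (0.38), while its second probe set, whose name marks it as able to match several transcripts, gave 102 and 251 (1.30), so its size is uncertain.

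Set against the scatter of its tertile of signal, a log2 ratio was higher by more than that SD for 18 of the 37 genes (48.6%) and lower by more for 5 (13.5%), where 18.3% and 24.7% of all genes were. The 5 lower genes were Pfkm, Aldoc, Eno3, Pdhb and Taldo1. The tertile limits were set on probe sets of genes with several. From lowest to highest the tertiles therefore held unequal numbers of all measured genes (2794, 3720 and 4135). Of the 37 genes 18 lay in the highest tertile of signal, with a median log2 ratio of 0.27 against -0.04 for all genes of that tertile, and 3 of them were at least 1.5-fold higher (4.57% of all genes of that tertile). The 13 genes in the middle tertile had a median of -0.11 against -0.05 for all genes there. Of them 6 lay above 0 (43.6% of all genes there). Another count was that of 1.5-fold differences, with 3 of the 13 higher and 1 lower (5.43% and 6.56% of all genes there). The 6 genes in the lowest tertile had a median of -0.03, as all genes there had. Of these 1 was at least 1.5-fold higher and 0 lower (5.76% and 9.7% of all genes there). Among 17 genes with several measured probe sets the sign was the same in all of them for 15 (88.2%), against 59.9% of 4921 genes over the whole array. The part of the size of the ratios in this difference was not tested.

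Genes of neighbouring pathways were read from further lists. Over all genes 5.18% were at least 1.5-fold higher and 6.23% lower, so few or no such genes in lists this short say little. Of 17 measured tricarboxylic acid cycle genes 16 lay below 0 and 1 above, where 44.1% of all genes lay above 0. None was 1.5-fold different, and the median was -0.17 against -0.04 over all genes. Several lay close to 0, such as Idh3b (-0.02) and Dlst (-0.01). Dlst, Idh3a, Idh3g, Sdha and Sdhc each had another probe set above 0, while Sdhd, the gene above 0, had another below 0. The lowest was Suclg2, a succinyl-CoA ligase subunit gene (1463 and 1022, log2 ratios of -0.52 and -0.47 by its probe sets). Among other genes of the Slc2a transporter family 4 of 8 were measured and all 4 lay below 0. They were led by Slc2a12 (121 and 69.2, 1.74-fold lower), with a single measured probe set. The name of that probe set marks it as able to match several transcripts, and its signal with PC-3 medium lay near the limit of 57.7. Slc2a6 was above the limit with PC-3 medium alone (75.5). Of 6 measured further pentose phosphate genes none was 1.5-fold different, and the lowest was Prps2, a phosphoribosyl pyrophosphate synthetase gene (701 and 476, -0.56, with -0.20 and -0.10 by its other probe sets). Of 8 further carrier and pyruvate dehydrogenase genes none was 1.5-fold different either, Emb having the largest ratio.

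Of 8 measured further glycolytic and gluconeogenic enzymes 1 was at least 1.5-fold different: Fbp1, which encodes a fructose bisphosphatase that opposes phosphofructokinase, gave 126 and 256 (2.04-fold higher, single measured probe set). Among 13 measured further glycogen genes 2 were at least 1.5-fold higher and 2 lower, where 5.18% and 6.23% of all genes were. Ppp1r3b and Ppp1r3c both encode subunits that target a phosphatase to glycogen, and they went opposite ways: Ppp1r3b gave 396 and 837 (2.12-fold higher), and Ppp1r3c 951 and 396 (2.40-fold lower, with -1.26 and -1.20 from its probe sets). The phosphoglucomutase gene Pgm1 was 1.64-fold higher (622 and 1019), and the glycogen phosphorylase gene Pygb 1.67-fold lower (1465 and 876).

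**Figure D4:**
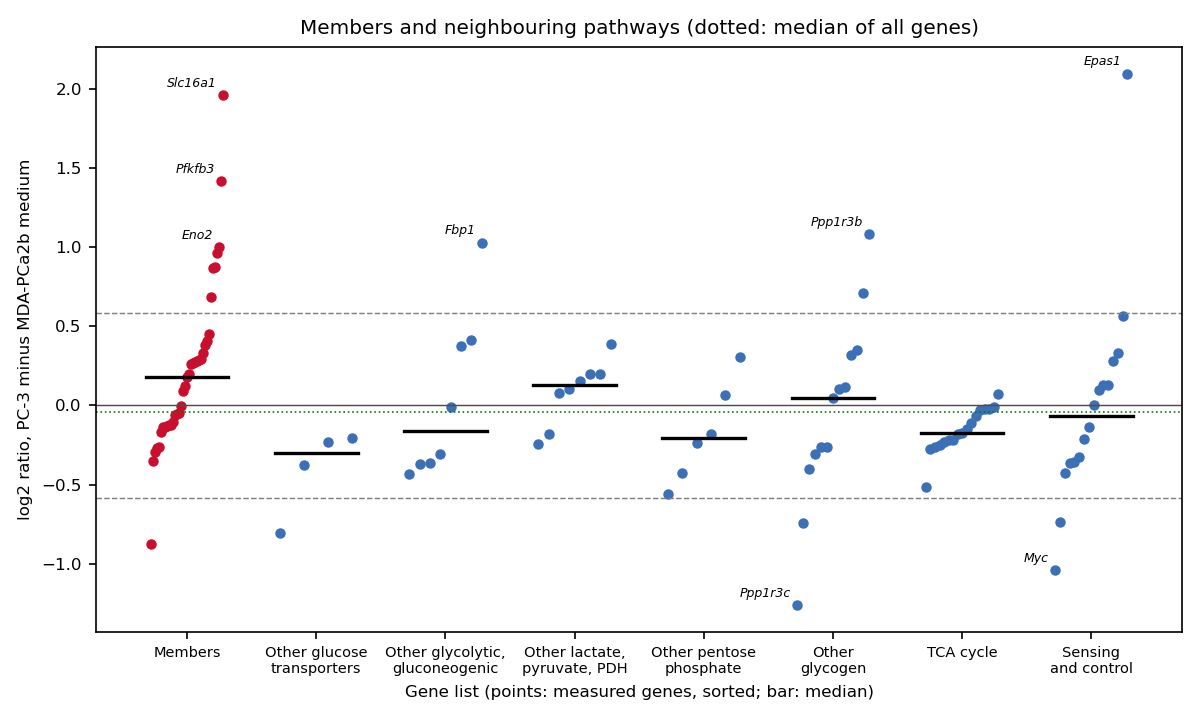
Log2 ratio (vertical axis) of the 37 genes (red) and of the measured genes of 7 neighbouring lists (blue), 1 point per gene, sorted within a list, with bars at the medians. The bar of the group is at 0.18 and that of the tricarboxylic acid cycle at -0.17, and the dotted line marks the median of all genes (-0.04).

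Among 16 measured genes of glucose sensing and control, 1 was at least 1.5-fold higher and 2 lower, where 5.18% and 6.23% of all genes were. Epas1, which encodes the hypoxia-inducible factor subunit HIF-2 alpha, gave 844 and 3611 (4.28-fold higher, single measured probe set). Hif1a, the gene of the related subunit HIF-1 alpha, gave 5456 and 8060 (log2 ratio 0.56), with larger ratios by its other probe sets (0.89 and 1.07), and their partner gene Arnt gave 784 and 950 (0.28). Myc, whose product activates many glycolytic genes, was 2.06-fold lower (802 and 390), and Prkaa2, a catalytic subunit gene of the energy sensor AMPK, 1.67-fold lower (242 and 145; -1.25 by its second probe set). Txnip, a glucose-induced inhibitor of glucose uptake, gave 2367 and 1758 (-0.43, and -0.32 by its second probe set). Transcripts of these factors do not measure the activity of their proteins.

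The cells carried osteoblast markers: Col1a1, Ibsp, Alpl, Sp7 and Dmp1 were all above the limit, with a summed signal of 45098 in MDA-PCa2b medium against 40680 in PC-3 medium, most of it from Col1a1 and Ibsp. Bglap and Runx2, also listed, had no single-gene probe set. All 5 measured markers lay below 0, where 44.1% of all genes lay above 0. Dmp1 was 4.14-fold lower (1765 and 426), while Sp7 (1469 and 919) had a log2 ratio of -0.68 and Alpl (4649 and 3490) one of -0.41. Col1a1 (-0.004) and Ibsp (-0.12) lay close to 0, with -0.15 and -0.36 by their second probe sets. The part of these markers in the ratios of the group was not tested. Macrophage markers were present too, 6 of 6 above the limit (Lyz2 at 9194 and 9416), with summed signals of 14320 and 14499, most of it from Lyz2. Cd68 was higher (566 and 851, log2 ratio 0.59), while Csf1r (2713 and 2378, log2 ratio -0.19) and Ptprc (433 and 370, -0.23) lay below 0. Markers of endothelium (0 of 4) and red cells (0 of 2) were not above the limit on both arrays. In RNA of a whole culture fewer cells of a type and less RNA per cell cannot be told apart, and which cells gave the signals was not tested.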

How the data were processed

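Total RNA (5 µg) of 2 cultures was measured on 1 Affymetrix array each. The deposited file gives 1 linear intensity per probe set and array; the submitters' processing notes name GCOS 1.4 and MAS5 as the authors' tools. The means without the lowest and highest 2% of probe sets were equal (300.002 on both arrays), so a global scaling had been applied. The scaling target and the background correction are not given in the sources used here, nor are detection calls. Of 45101 probe sets 34958 were paired with 1 gene by the platform annotation (GRCm38.p6 gene table for current symbols, 0 changed), 932 with several and 9211 with none listed. The 64 control probe sets were left out of gene values.

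The 50th percentile of each array (56.7 and 57.7) served as lower limit, to which dimmer signals were raised before log2 was taken. A gene was measured where its brightest probe set lay above it on both arrays. The genes and lists were chosen with earlier results of these data known. All measured genes of the group were named, and of each neighbouring list those at least 1.5-fold different (at most 4) or the largest; further genes named, such as Hif1a, Arnt, Txnip, Bsg, Dld, Pdhx, Slc16a7 and Slc2a6, were picked once their values had been seen. The scatter is the pooled SD of probe sets around their gene's mean (4921 genes). The calculation was tested on simulated data. The number of arrays limits the precision. Python 3.11.15, numpy 2.4.6 and pandas 2.3.3 were used.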

Additional observations from a re-analysis of the deposited data

How the results depend on the processing

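With the lower limit at the 75th percentile 24 genes of the group were measured, with 4 at least 1.5-fold higher (Slc2a1, Pfkl, Pfkp and Slc16a1), 0 lower and 1 at least 2-fold higher, while Pfkfb3, Slc16a3 and Eno3 were above it on 1 array alone. Of the 6453 genes measured with that limit 3.73% were at least 1.5-fold higher and 3.44% lower. With a threshold of 2-fold in place of 1.5-fold 3 genes were higher and 0 lower, and with 3-fold 1 was higher (Slc16a1) and 0 lower. The share of all genes at 3-fold is not given. Under the other alternatives (limit at the 25th percentile, log2(signal + 16) with no limit, quantile normalisation, median ratio set to 0, averaged probe sets, no probe sets of shared transcripts, and control probe sets included, the last chosen after seeing the data) the same 7 genes were at least 1.5-fold higher and Eno3 lower, with Gys1 added by averaging (0.84). Under these alternatives from 5.14% to 8.76% of all genes were at least 1.5-fold higher, and from 5.36% to 9.01% lower. Without probe sets of shared transcripts 35 genes were measured, as Aldoa had no other probe set and Slc2a3 none above the limit. The median log2 ratio of the group ranged from 0.15 to 0.23 over all alternatives. Eno2 fell short of 2-fold with quantile normalisation and with log2(signal + 16), which left 2 genes at that threshold. No result changed sign among the genes at least 1.5-fold different. No paired analysis was possible because each group held 1 array, and leaving out a replicate was impossible for the same reason. Ratios of dim genes such as Eno2, Slc2a4 and Pfkfb2 are limited by signals close to the lower limit.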
